A study of Mus musculus with 12 samples.

Results

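Egr1, Egr2, Egr3, Ier2, Ier3, Ier5, Nr4a1, Ccn1 and Ccn2 are immediate-early genes outside the AP-1 family, and their transcripts were counted in 12 RNA-seq libraries of L929 cells, an established line of mouse fibroblasts. The 9 genes were taken by name from the 54532 genes counted in each library, where Ccn1 is also known as Cyr61 and Ccn2 as Ctgf. Of these 9 genes, 8 passed the filter on low counts that left 16840 genes to test, and Ccn2 did not. The libraries carry 6 labels with 2 libraries each: HT-DNA, hpRNA, cGAMP, G3-YSD, HSV and mock. The labels name transfection for HT-DNA, hpRNA, G3-YSD and HSV, stimulation for cGAMP, and no treatment for mock, and say no more about the agents. All 12 libraries share the line, the growth medium and the time of RNA collection, which was 6 hours after transfection, and hold RNA with polyA tails. cGAMP is a cyclic dinucleotide that cGAS produces on binding DNA. The transfections were made in duplicate, and nothing says whether the 2 libraries of a label came from separate cultures, so the p-values measure the spread between such libraries, part of which may be technical. L929 is 1 long-cultured line, so the values describe that line only. The source of the cells is worded differently for cGAMP, G3-YSD and HSV than for HT-DNA, hpRNA and mock. Where G3-YSD, HSV or cGAMP libraries are set against mock, a batch that follows this wording and the treatment cannot be told apart. The digit after HSV was read as a replicate number, although it could also name a virus type, which the labels do not settle.

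Immediate-early genes are transcribed within minutes of a signal at the cell surface or of a stress, from transcription factors already present in the cell, and most of their transcripts are short-lived. The Egr genes encode zinc-finger transcription factors induced through ERK kinases, ELK factors and the serum response factor SRF, and the corepressors Nab1 and Nab2 bind several of the Egr proteins. Ccn1 and Ccn2 encode secreted matrix-associated proteins and are widely used readouts of the coactivators YAP and TAZ, which act through TEAD factors on DNA. Ier2, Ier3 and Ier5 encode small proteins first found as products of growth factor induction, and Ier3 is also a known NF-kB target linked to cell survival. Nr4a1 encodes an orphan nuclear receptor.

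The libraries did not sort by label. A noise ratio, which is 1 where 2 libraries differ by counting noise alone, was computed for each pair of libraries. Each library was closest to a library of another label with the same number, in 6 reciprocal pairs with ratios of 1.41 to 2.03, whereas the 2 libraries of one label had ratios of 3.52 to 82.6. HT-DNA 1 and 2 paired with cGAMP 1 and 2, G3-YSD 1 and 2 with HSV 1 and 2, and hpRNA 1 and 2 with mock 1 and 2. G3-YSD and HSV values of the same number are therefore not read as independent repeats below, and comparisons that share mock or cGAMP libraries are not independent of each other. The tests nevertheless take every library as independent, with 6 residual degrees of freedom in the edgeR fit of all 12. Their p-values may therefore be too small, and their standard errors and intervals too narrow. No library was moved to another group, and whether each label describes its library is not settled here. The untreated label itself was uneven, with a summed level of 10 interferon genes of 61.2 CPM (counts scaled to the library total) in mock 1 and 2893 CPM in mock 2. Every value against mock or cGAMP below is therefore one between libraries labelled so. The G3-YSD and HSV libraries had noise ratios of 43.7 to 68.3 with the libraries of the other labels. Where they are said below to lie apart from the other 8, the share of all genes that do so was not counted. Total counts were 12650790 to 18912400. The number of genes detected was 26496 and 23997 in the G3-YSD libraries and 26241 and 23909 in the HSV libraries, against 21635 to 22550 in the other 8. Mitochondrial genes took 3.64% of counts in G3-YSD 2 and 3.53% in HSV 2, against 2.03 to 2.52% in the other 10. Of the 12 fibroblast markers listed, 9 were tested, and their summed level was 2645 to 4287 CPM. Lum had 0.06 CPM in mock 2 and 0 elsewhere, and Dcn had 0 counts in all 12 libraries. Markers of leukocytes, epithelium and endothelium summed to 72.8 to 94.3 CPM, of which 57.4 to 91.3 CPM was Cd68. The part of these library differences in the results below was not tested. In bulk RNA, fewer cells with a transcript and less transcript per cell cannot be told apart.

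Upstream sequence is shown for the 3 genes that passed the test below, Egr2, Ccn1 and Ier3. The sequences are the 250 bases before a transcription start in RefSeq (GRCm38.p6, the assembly that mm10 names), on the strand of the gene, and 5 of the 9 genes were in that table. For Egr2, which has 5 starts in the table, the start nearest to that of its longest coding transcript was used. That start, at 67537869, lies inside the annotated gene, which begins at 67535475, and the other starts are not shown. Capitals mark a CArG box, the SRF element, in Egr2 at chr10:67537619-67537868, plus strand, a TEAD site and a TATA box in Ccn1 at chr3:145649986-145650235, minus strand, and an NF-kB site in Ier3 at chr17:35821463-35821712, plus strand.
Egr2: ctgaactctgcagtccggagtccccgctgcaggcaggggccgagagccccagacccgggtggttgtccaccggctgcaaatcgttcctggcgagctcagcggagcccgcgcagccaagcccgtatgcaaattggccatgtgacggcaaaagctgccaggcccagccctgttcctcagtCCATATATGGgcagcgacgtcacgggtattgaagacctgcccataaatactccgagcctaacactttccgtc
Ccn1: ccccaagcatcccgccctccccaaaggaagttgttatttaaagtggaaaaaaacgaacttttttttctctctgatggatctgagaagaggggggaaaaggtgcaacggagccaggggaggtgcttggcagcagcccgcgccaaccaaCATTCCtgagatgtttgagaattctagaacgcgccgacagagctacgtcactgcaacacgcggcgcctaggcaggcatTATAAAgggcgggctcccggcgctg
Ier3: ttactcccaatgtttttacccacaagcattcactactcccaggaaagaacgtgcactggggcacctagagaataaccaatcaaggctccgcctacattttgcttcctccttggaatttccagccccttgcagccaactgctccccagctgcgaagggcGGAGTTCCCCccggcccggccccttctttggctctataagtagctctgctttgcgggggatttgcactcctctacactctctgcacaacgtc

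The CArG box of Egr2 began 72 bases before the start, and 1.47% of the 32817 promoters of the same length held one. In Ccn1 the TEAD motif GGAATG lay on the other strand, 103 bases before the start, and is found in 12.6% of promoters, while TATAAA lay 25 bases before it (12.4% of promoters). The NF-kB motif of Ier3 began 92 bases before the start (7.25% of promoters) and overlapped a GC box, GGGCGG, a motif that 32.7% of promoters hold. Both strands were also searched for the EGR site GCGNGGGCG (4.7% of promoters), the ETS site CCGGAA (12%), the cAMP response element TGACGTCA (1.55%), its half-site TGACG (17.7%), which lies within it, the NBRE AAAGGTCA (1.34%) and the AP-1 site TGACTCA or TGAGTCA (4.46%). Egr2 held the half-site at 2 positions and Ccn1 at 1, and Ccn1 also held 2 GC boxes. The upstream sequence of Nr4a1, at a start inside the annotated gene, held 1 EGR site, overlapping 1 of its 3 GC boxes, and 1 TEAD site, 1 ETS site and 4 half-sites, and that of Ier5 held 2 GC boxes. A match is a string of letters and was not tested as a bound site.

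**Figure D1:**
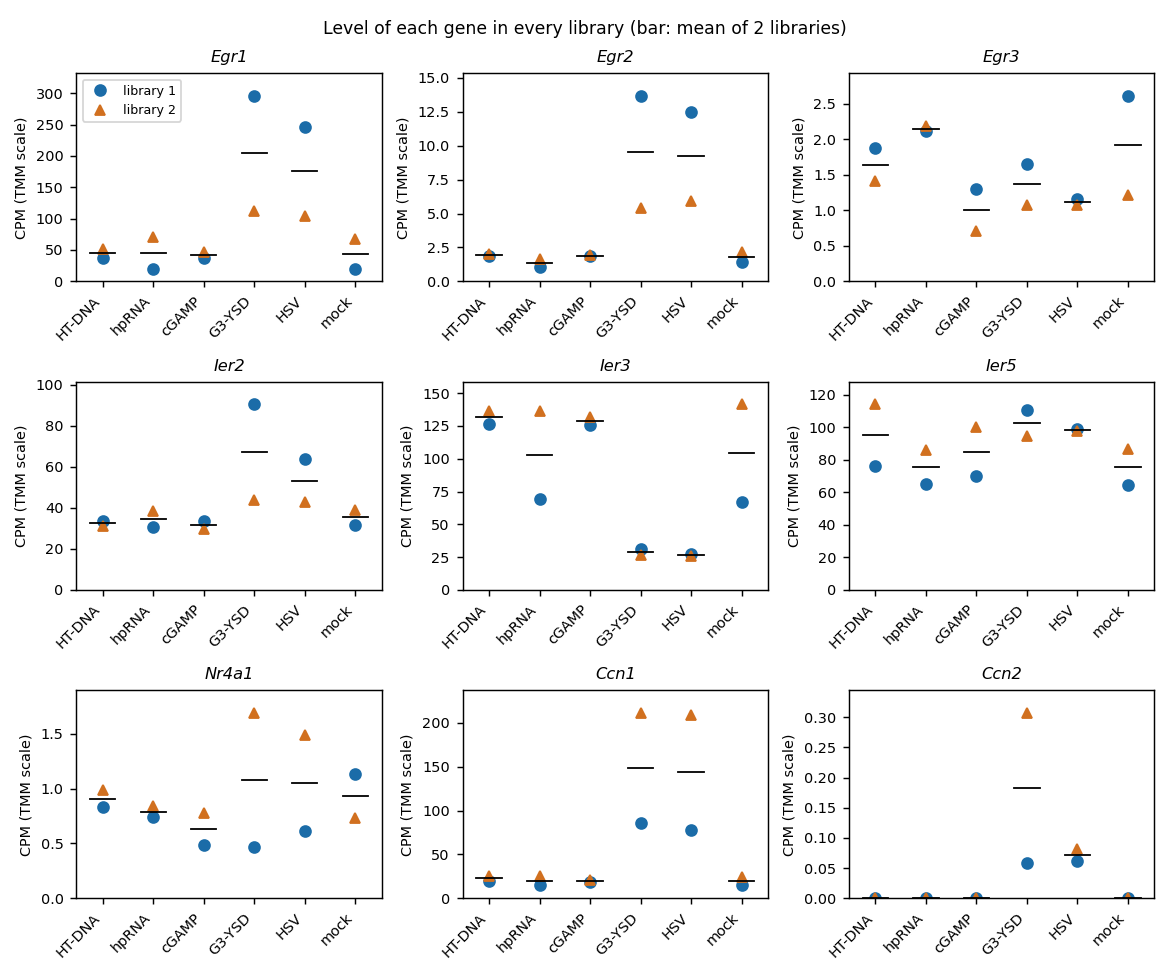
Level of each of the 9 genes in every library, in CPM on the TMM scale, with its own axis per gene. Circles are library 1, triangles library 2 and bars the mean of the 2. Egr1, Egr2 and Ccn1 are highest and Ier3 is lowest in the 4 libraries labelled G3-YSD and HSV, and library 1 is the higher of the pair for Egr1 and Egr2 but the lower for Ccn1.

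At 6 hours, 3 of the 8 tested genes differed between G3-YSD and mock libraries, and these 3 also differed between HSV and mock libraries. Ccn1 and Egr2 rose and Ier3 fell. By edgeR's quasi-likelihood test over all 12 libraries, with a call at a Benjamini-Hochberg adjusted p under 0.05, 5.16% of all tested genes were called in G3-YSD against mock, with 1.79% higher and 3.37% lower, so 2 of 8 higher and 1 of 8 lower stood against those shares. In HSV against mock 5.2% were called, with 1.73% higher and 3.47% lower. Against cGAMP the same 3 genes were called in the same directions, where 5% of all genes were called in G3-YSD (1.85% higher and 3.15% lower) and 5.08% in HSV (1.78% higher and 3.31% lower). Against mock, the 8 genes had a median log2 fold change of 0.68 in G3-YSD and 0.49 in HSV, beside 0.11 for all tested genes in either comparison. HT-DNA, hpRNA and cGAMP against mock had 0 of 16840 genes called (0%, 0% and 0%), with 62, 58 and 99 genes at an unadjusted p under 0.05, and 0 of the 8 genes among them. DESeq2 called 1, 1 and 0 genes in these 3 comparisons, with 0 of the 8 among them. A fit of the HT-DNA, hpRNA, cGAMP and mock libraries alone, with the replicate number as a block, called 14, 0 and 23 genes. Among these were 0 of the 8.

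**Figure D2:**
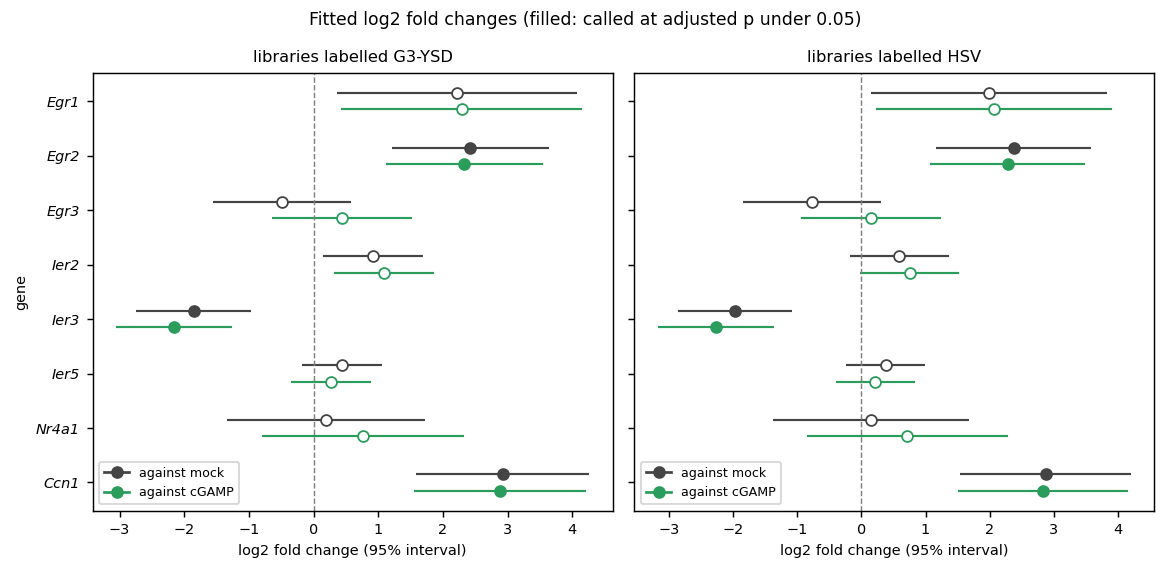
Fitted log2 fold changes of the 8 tested genes in G3-YSD and HSV libraries, each against mock and against cGAMP, with 95% intervals. Filled points passed an adjusted p of 0.05: Ccn1 and Egr2 lie to the right of 0 and Ier3 to the left in all 4 comparisons. Egr1, and in G3-YSD also Ier2, have intervals above 0 without a call.

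Egr2, a zinc-finger factor best known in hindbrain, Schwann cells and lymphocytes (chromosome 10, 67535475 to 67542188, plus strand, mm10), was a low transcript that was higher in every G3-YSD and HSV library. It had 13.7 and 5.38 CPM in G3-YSD 1 and 2 (232 and 70 counts) and 12.5 and 5.95 CPM in HSV 1 and 2 (204 and 72 counts), against 1.42 and 2.13 CPM in mock 1 and 2 (25 and 35 counts). The 6 libraries of HT-DNA, hpRNA and cGAMP lay between 1.08 and 2.03 CPM. No G3-YSD or HSV library overlapped any of the other 8, and library 1 was the higher of both pairs. The mean was 9.54 ± 5.88 CPM in G3-YSD and 9.23 ± 4.64 CPM in HSV, against 1.78 ± 0.505 CPM in mock (SD, n = 2 each). The log2 fold change against mock was 2.42 (standard error 0.53, adjusted p = 0.0406) in G3-YSD and 2.38 (standard error 0.53, adjusted p = 0.0425) in HSV. Against cGAMP, which had 1.84 and 1.95 CPM, it was 2.33 (adjusted p = 0.0454) in G3-YSD and 2.28 (adjusted p = 0.048) in HSV. With the replicate number as a block, adjusted p against cGAMP was 0.0545 in G3-YSD and 0.0583 in HSV, and against mock 0.0499 in G3-YSD and 0.0522 in HSV, with log2 fold changes of 2.25 to 2.36.

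Egr1, the most widely induced Egr factor (chromosome 18, 34859823 to 34864984, plus strand), had a fold change of similar size. It was not called by edgeR over all 12 libraries with the filter on low counts. It stood at 296 and 113 CPM in G3-YSD 1 and 2 and 246 and 105 CPM in HSV 1 and 2, against 19.9 and 68.3 CPM in mock 1 and 2. HT-DNA had 37.4 and 52.0 CPM, hpRNA 20.0 and 70.2 CPM, and cGAMP 36.9 and 46.8 CPM. The 4 G3-YSD and HSV libraries lay above the other 8, but the libraries of one label differed up to 3.52-fold, with mock 2 at 3.43 times mock 1. The log2 fold change was 2.21 (standard error 0.808, 95% interval 0.36 to 4.07, adjusted p = 0.151) in G3-YSD against mock and 1.99 (standard error 0.802, 95% interval 0.15 to 3.83, adjusted p = 0.179) in HSV against mock. Taken number by number, it was 3.90 for G3-YSD 1 against mock 1 and 0.72 for G3-YSD 2 against mock 2. DESeq2, which called 13.3% of genes in G3-YSD against mock and 13.7% in HSV against mock, called Egr1 in both, with adjusted p of 0.0254 and 0.0494. Without the filter edgeR also called it, with adjusted p of 0.00318 in G3-YSD and 0.00695 in HSV against mock.

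Egr3 (chromosome 14, 70077203 to 70082614, plus strand), which in other cells is induced together with Egr1 and Egr2, had 11 to 46 counts in every library and was highest in mock 1. It had 1.65 and 1.08 CPM in G3-YSD and 1.16 and 1.07 CPM in HSV, against 2.61 and 1.22 CPM in mock. HT-DNA had 1.87 and 1.41 CPM, hpRNA 2.11 and 2.18 CPM, and cGAMP 1.30 and 0.714 CPM. Its log2 fold change against mock was -0.48 in G3-YSD (95% interval -1.55 to 0.58, adjusted p = 0.538) and -0.77 in HSV (95% interval -1.86 to 0.31, adjusted p = 0.335). A rise of the size seen for Egr2 lay outside both intervals.

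Ier3, also named IEX-1 (chromosome 17, 35821684 to 35822923, plus strand), moved the other way. It had 31.1 and 26.8 CPM in G3-YSD 1 and 2 and 27.7 and 25.6 CPM in HSV 1 and 2, against 67.4 and 142 CPM in mock 1 and 2. HT-DNA had 127 and 137 CPM, hpRNA 69.2 and 136 CPM, and cGAMP 126 and 132 CPM. All 4 G3-YSD and HSV libraries lay below the lowest of the other 8, and unlike Egr1 or Ccn1 they lay close together. The mean was 28.9 ± 3.04 CPM in G3-YSD and 26.7 ± 1.49 CPM in HSV, against 105 ± 52.6 CPM in mock (SD, n = 2 each). The log2 fold change against mock was -1.85 (standard error 0.388, adjusted p = 0.0355) in G3-YSD and -1.97 (standard error 0.39, adjusted p = 0.0289) in HSV. Against cGAMP it was -2.15 (adjusted p = 0.025) in G3-YSD and -2.27 (adjusted p = 0.0206) in HSV. Mock 1 and hpRNA 1 were the lower libraries of their labels by about the same margin, and mock 2 had 2.10 times the level of mock 1.

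Ier2, a nuclear protein induced by growth factors (chromosome 8, 84661331 to 84662852, minus strand), stood at 90.6 and 43.7 CPM in G3-YSD 1 and 2 and 63.8 and 42.7 CPM in HSV 1 and 2, against 31.8 and 39.0 CPM in mock. The other 6 libraries had 29.5 to 38.6 CPM, so G3-YSD 1 and HSV 1 stood out and G3-YSD 2 and HSV 2 exceeded mock 2 by little. It had a log2 fold change of 0.92 (standard error 0.338, adjusted p = 0.152) in G3-YSD against mock and 0.59 (standard error 0.336, adjusted p = 0.309) in HSV against mock, and neither was called. In G3-YSD against cGAMP it was 1.09 (edgeR adjusted p = 0.109), which DESeq2 called at an adjusted p of 0.0252.

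Ier5 (chromosome 1, 155096361 to 155099636, minus strand), which encodes a partner of the heat shock factor HSF1, had 111 and 94.5 CPM in G3-YSD and 99.1 and 98.0 CPM in HSV, against 64.4 and 86.8 CPM in mock. HT-DNA 2 was the highest of all 12 libraries at 114 CPM, with HT-DNA 1 at 76.4 CPM, and cGAMP spread likewise, at 69.9 CPM in library 1. Against mock the log2 fold change was 0.44 in G3-YSD (95% interval -0.18 to 1.06, adjusted p = 0.335) and 0.38 in HSV (95% interval -0.23 to 1.00, adjusted p = 0.396). A change as large as that of Egr2 or Ccn1 lay outside both intervals.

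Nr4a1, known as Nur77 (chromosome 15, 101254269 to 101274795, plus strand), had 8 to 22 counts per library. It had 0.472 and 1.69 CPM in G3-YSD 1 and 2 and 0.613 and 1.49 CPM in HSV 1 and 2, against 1.14 and 0.732 CPM in mock 1 and 2. The libraries of one label thus lay on either side of mock, lower in library 1 and higher in library 2. Against mock the log2 fold change was 0.19 (95% interval -1.34 to 1.72, adjusted p = 0.878) in G3-YSD and 0.15 (95% interval -1.39 to 1.68, adjusted p = 0.906) in HSV. Number by number it was -1.27 for G3-YSD 1 against mock 1 and 1.21 for G3-YSD 2 against mock 2, and so had no common direction.

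Ccn1, a secreted ligand of integrins (chromosome 3, 145646976 to 145649981, minus strand), had a larger fitted fold change than the other 7 tested genes with both libraries of each label, but not without G3-YSD 2, where it was 2.11 beside 2.93 for Egr2, nor without mock 2, where it was 3.30 beside 3.35 for Egr1, on the log2 scale in G3-YSD against mock. It had 85.6 and 211 CPM in G3-YSD 1 and 2 and 78.0 and 209 CPM in HSV 1 and 2, against 15.1 and 24.0 CPM in mock 1 and 2. The other 6 libraries had 15.5 to 25.4 CPM. The 4 G3-YSD and HSV libraries stood above all others, and library 2 was the higher of each pair, the reverse of Egr1, Egr2 and Ier2. The mean was 149 ± 89.0 CPM in G3-YSD and 143 ± 92.5 CPM in HSV, against 19.6 ± 6.30 CPM in mock (SD, n = 2 each). The log2 fold change against mock was 2.92 (standard error 0.582, adjusted p = 0.0305) in G3-YSD and 2.87 (standard error 0.581, adjusted p = 0.0311) in HSV. Against cGAMP, at 19.0 and 21.2 CPM, it was 2.88 (adjusted p = 0.0316) in G3-YSD and 2.83 (adjusted p = 0.0334) in HSV.

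Ccn2, the connective tissue growth factor (chromosome 10, 24595442 to 24598683, plus strand), was barely detected. It had 1 and 4 counts in the G3-YSD libraries, 1 and 1 in the HSV libraries and 0 in each of the HT-DNA, hpRNA, cGAMP and mock libraries. A count of 0 allows up to 3 counts, or 0.159 to 0.193 CPM in those 8 libraries, for counting error only, so no fold change was computed.

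The calls of Ccn1, Egr2 and Ier3 depended on single libraries, as did those of the other genes. In G3-YSD against mock, 0 of all tested genes were called without mock 1 or without mock 2, 77 without G3-YSD 2 and 652 without G3-YSD 1, and in HSV against mock 0, 0, 130 without HSV 2 and 682 without HSV 1, against 869 and 876 with all libraries. Without mock 1, adjusted p in G3-YSD against mock was 0.24 for Ccn1, 0.282 for Egr2 and 0.0833 for Ier3, and without mock 2 it was 0.144, 0.165 and 0.183. Without G3-YSD 2 the 3 values were 0.0836, 0.052 and 0.105. Without G3-YSD 1, Ccn1 kept its call (adjusted p = 0.0316), and Egr2 and Ier3 had 0.0872 and 0.0678. In HSV against mock the corresponding values were 0.247, 0.291 and 0.0834 without mock 1, 0.143, 0.166 and 0.153 without mock 2, and 0.0855, 0.0539 and 0.0935 without HSV 2. Without HSV 1 they were 0.0305, 0.0966 and 0.068. None of these fits reversed a direction: the log2 fold change in G3-YSD against mock was 2.11 to 3.42 for Ccn1, 1.59 to 2.93 for Egr2 and -2.30 to -1.22 for Ier3. Fits that leave out G3-YSD 1 and HSV 1 together, or G3-YSD 2 and HSV 2 together, hold 1 library of each of these labels, take the spread from the other labels alone and call 7213 or 6533 genes in G3-YSD against mock, so their calls are no support for these genes.

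**Figure D3:**
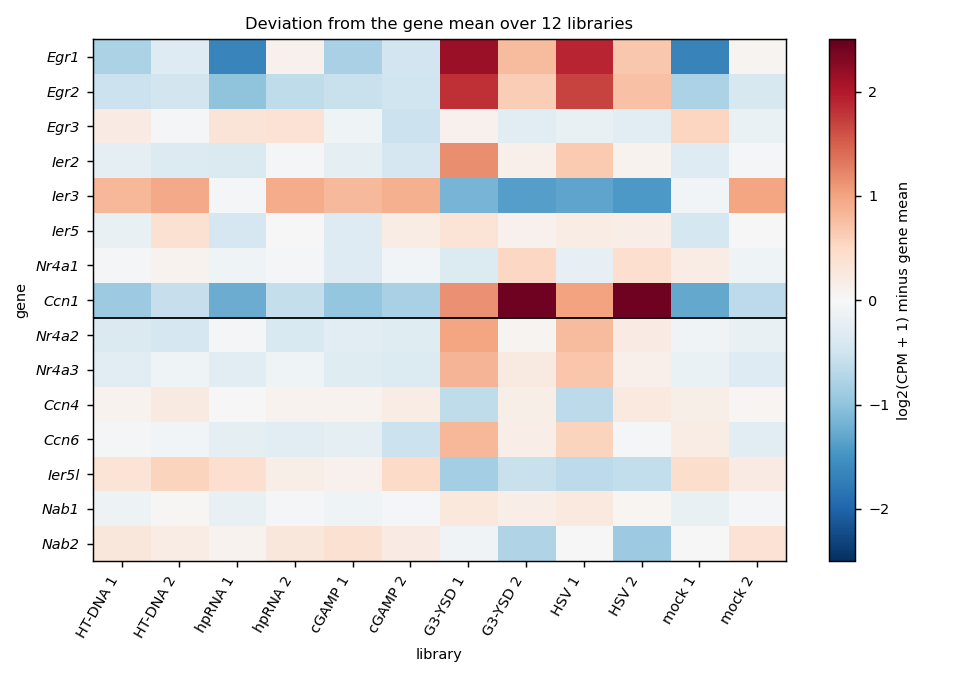
Level of the 8 tested genes and, under the line, of 7 relatives in each library, as log2(CPM + 1) minus the mean of the gene over 12 libraries. Egr1, Egr2, Ier2, Nr4a2 and Nr4a3 are highest in G3-YSD 1 and HSV 1, Ccn1 is highest in G3-YSD 2 and HSV 2, and Ier3 and Ier5l are low in all 4.

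Across the 12 libraries Ier3 was the most abundant of the 9 genes per length of transcript, at a mean of 77.1 FPKM, which is CPM per kilobase of exons. Ccn1 had 30.9 FPKM, Ier2 27.9, Ier5 27.1 and Egr1 20.6, followed by Egr2 at 1.26, Egr3 at 0.348 and Nr4a1 at 0.256 FPKM. The order depended on the library. In G3-YSD 2 Ccn1 led with 105 FPKM, beside 25.1 for Egr1, whereas in G3-YSD 1 Egr1 led with 66.1 FPKM and Ier2 with 59.5 FPKM came before Ccn1 with 42.4 FPKM. In mock 1 and 2 Ier3 led with 59.6 and 125 FPKM, beside 7.49 and 11.9 for Ccn1 and 4.44 and 15.2 for Egr1. Between labels, G3-YSD and HSV were neighbours in level for Egr1, Egr2, Ier2, Ier3 and Ccn1 and differed by less than the larger of their SDs for each of these. HT-DNA, hpRNA, cGAMP and mock likewise differed from one another by less than the SD of at least 1 label of each pair for Egr1, Ier2, Ier3, Ier5 and Ccn1. Exceptions were found for Egr2, Egr3 and Nr4a1. For Egr2, hpRNA (1.38 ± 0.421 CPM) differed by more from HT-DNA (1.95 ± 0.108 CPM) and from cGAMP (1.89 ± 0.0756 CPM). For Egr3 this held, among others, between hpRNA (2.15 ± 0.0512 CPM) and cGAMP (1.01 ± 0.413 CPM). For Nr4a1, cGAMP (0.633 ± 0.206 CPM) differed by more from HT-DNA (0.908 ± 0.106 CPM) and from mock (0.934 ± 0.286 CPM). HT-DNA also differed by more from hpRNA (0.791 ± 0.0693 CPM) for Nr4a1.

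Of 10 relatives 7 were tested, and 1, Ier5l, was called lower against mock, where 3.37% of all genes were called lower in G3-YSD and 3.47% in HSV. Without mock 1 or without mock 2, 0 of all genes were called, Ier5l included. Ier5l, named for its likeness to Ier5, had 11.3 and 14.0 CPM in G3-YSD and 13.1 and 13.5 CPM in HSV, against 28.9 and 24.6 CPM in mock. It fell by 1.08 (standard error 0.205, adjusted p = 0.027) in G3-YSD and by 1.01 (standard error 0.205, adjusted p = 0.0313) in HSV on the log2 scale. The other 2 nuclear receptors of the Nr4a family were not called. Their G3-YSD and HSV values lay above the range of the other 8 libraries, a trait whose share over all genes was not counted. Nr4a2 had 33.3 and 17.2 CPM in G3-YSD and 29.2 and 19.0 CPM in HSV, against 15.3 and 14.4 CPM in mock (log2 fold change 0.77 and 0.70, adjusted p = 0.192 and 0.224). Nr4a3 had 13.1 and 8.15 CPM in G3-YSD and 11.6 and 7.51 CPM in HSV, against 5.97 and 5.25 CPM in mock (0.92 and 0.77, adjusted p = 0.111 and 0.159). Both were highest in library 1, as Egr1 and Egr2 were, whereas Nr4a1 was higher in library 2. Nab2, the corepressor that Egr factors themselves induce, had 32.9 and 20.4 CPM in G3-YSD and 34.9 and 18.2 CPM in HSV, against 35.1 and 45.5 CPM in mock (adjusted p = 0.291 and 0.286). Nab1 had log2 fold changes of 0.33 and 0.26 (adjusted p = 0.188 and 0.27), Ccn4 of -0.28 and -0.23 (adjusted p = 0.606 and 0.681) and Ccn6 of 1.16 and 0.71 (adjusted p = 0.331 and 0.55). Egr4, Ccn3 and Ccn5 did not pass the filter on low counts.

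Of 34 other immediate-early genes tested, G3-YSD libraries had 4 called higher and 2 called lower than mock, and HSV libraries had 3 called higher and 2 called lower. Their median log2 fold change was 1.27 in G3-YSD and 1.21 in HSV, beside 0.11 for all tested genes. Of all tested genes, 1.79% were called higher and 3.37% lower in G3-YSD against mock, and 1.73% and 3.47% in HSV. Fosb, an AP-1 subunit, had 20.8 and 10.0 CPM in G3-YSD and 17.8 and 10.7 CPM in HSV, against 0.909 and 0.854 CPM in mock, with log2 fold changes of 4.12 (adjusted p = 0.00773) and 4.0 (adjusted p = 0.0069). It was higher in library 1, as Egr1 and Egr2 were. Fos rose by 2.66 in G3-YSD (adjusted p = 0.0454) and had 2.52 in HSV (adjusted p = 0.0524). The zinc-finger factor Klf6 rose by 1.41 in G3-YSD and by 1.34 in HSV (adjusted p = 0.0199 and 0.0205) and was higher in library 2, as Ccn1 was. Phlda1 rose by 1.31 and 1.28 (adjusted p = 0.0424 and 0.045). The ERK phosphatase Dusp4 and the EGF receptor inhibitor Errfi1 fell, Dusp4 by 0.80 and 0.85 (adjusted p = 0.0389 and 0.0316) and Errfi1 by 0.77 and 0.90 (adjusted p = 0.0485 and 0.0304). Against cGAMP 3 rose and 2 fell in G3-YSD, and 2 rose and 2 fell in HSV. The shares of all tested genes there were 1.85% higher and 3.15% lower in G3-YSD, and 1.78% and 3.31% in HSV. In HT-DNA, hpRNA and cGAMP against mock 0 of the 34 were called and 0 had an unadjusted p under 0.05.

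**Figure D4:**
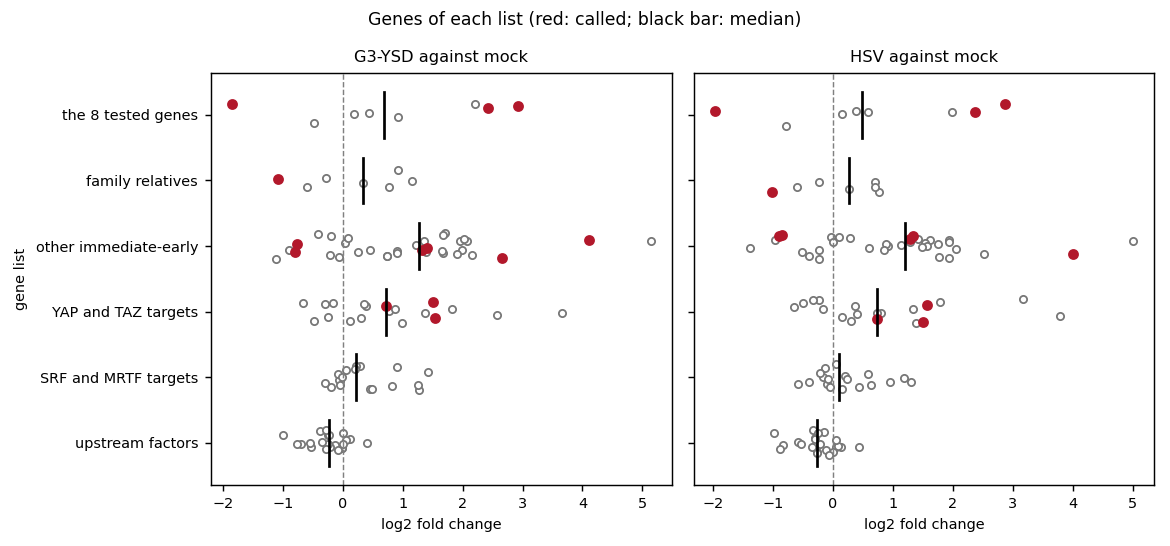
Log2 fold change of every tested gene of 6 lists in G3-YSD against mock and HSV against mock, with called genes in red and the median of each list as a black bar. The median of other immediate-early genes is 1.27 and 1.21, that of upstream factors -0.24 and -0.26, and called genes are a minority of each list.

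Further lists hold genes that textbooks tie to Ccn1 and to the Egr genes. Of 19 other YAP and TAZ targets tested, 3 rose and 0 fell in each of G3-YSD and HSV against mock, with medians of 0.72 and 0.73. The shares of all tested genes were 1.79% higher and 3.37% lower in G3-YSD, and 1.73% and 3.47% in HSV. Ankrd1, a muscle and stress-induced ankyrin protein, had 144 and 202 CPM in G3-YSD and 139 and 205 CPM in HSV, against 55.9 and 66.1 CPM in mock, a log2 fold change of 1.5 in both (adjusted p = 0.0346 and 0.0339). The kinase gene Nuak2 rose by 1.54 and 1.57 (adjusted p = 0.0478 and 0.0448) and Crim1 by 0.72 and 0.73 (adjusted p = 0.0433 and 0.0412). Against cGAMP 3 rose and 0 fell in each, beside 1.85% of all tested genes called higher in G3-YSD and 1.78% in HSV. Of 18 cytoskeletal targets of SRF and its coactivators, 0 were called by edgeR, with 1 at an unadjusted p under 0.05 in each comparison with mock, and the medians were 0.21 in G3-YSD and 0.11 in HSV. Of 22 upstream factors and kinases, 0 were called by edgeR, with 3 in G3-YSD and 2 in HSV at an unadjusted p under 0.05, and their medians were -0.24 and -0.26.

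Other measures also differed among the 12 libraries. The summed level of 10 interferon genes was 12399 and 327 CPM in G3-YSD 1 and 2 and 12371 and 297 CPM in HSV 1 and 2, against 61.2 and 2893 CPM in mock 1 and 2. HT-DNA 1 and 2 had sums of 891 and 3910 CPM, hpRNA 1 and 2 of 55.5 and 2631 CPM, and cGAMP 1 and 2 of 1033 and 4174 CPM. Egr1, Egr2 and Ier2 were highest in the 2 libraries with the highest interferon sums. G3-YSD 2 and HSV 2 had sums below that of mock 2. Their Egr1 and Egr2 levels were above those of every HT-DNA, hpRNA, cGAMP and mock library. Egr1 and Ier3 were also higher in mock 2 and hpRNA 2 than in mock 1 and hpRNA 1. Of the 10 interferon genes, 0 were called by edgeR in each comparison, with 0 at an unadjusted p under 0.05. Of 9 fibroblast markers tested, 0 were called against mock by edgeR, with 1 at an unadjusted p under 0.05 in each of G3-YSD and HSV. In G3-YSD against cGAMP 1, Fn1, was called higher, as were 1.85% of all tested genes. Of 8 markers of other cell types tested, 0 were called by edgeR, with 1 in G3-YSD and 2 in HSV at an unadjusted p under 0.05, and medians of 1.59 and 1.86. Krt5 had 0 counts in 11 of 12 libraries, while Kdr stood at 10.5 CPM in G3-YSD 1 and 8.15 CPM in HSV 1, against 0.284 and 0.061 CPM in mock. The part of these measures in the differences of Ccn1, Egr1, Egr2, Ier2 and Ier3 was not tested.

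For each gene the 3 genes most alike were found among those with a mean of at least 5 CPM, by Pearson's r of log2(CPM + 1) over 12 libraries. These 12 points are 6 close pairs, and the G3-YSD and HSV libraries stand apart, so the values describe a shared pattern over few points. Egr1 was most like Heatr9 (r = 0.99), Riok1 (0.98) and Snhg15 (0.978), and Egr2 was most like Sema3c (0.991), Tmco4 (0.99) and Nfkb1 (0.989). Ier2 was most like Ecpas (0.977), Clu (0.968) and Gtf3c3 (0.966), and Ier5 like Slco2a1 (0.956), Ankrd17 (0.933) and Mtmr10 (0.915). Ier3 was closest to Pex5 and Ncln (0.994 each) and Ttc37 (0.991), and Ccn1 to Gpat3 (0.997), Ints2 (0.995) and Btf3 (0.994). The low genes had looser company, with Gspt2, Stk17b and Mnt for Egr3 (0.839, 0.823 and 0.821) and Car5b, Fgd6 and Cfp for Nr4a1 (0.927, 0.919 and 0.917). None of these 24 genes was on the lists above.

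The median length of the 9 genes was 3276 bases, against 23483 bases for 13193 tested protein-coding genes. The longest, Nr4a1, spans 20527 bases, and 45.7% of tested genes are no longer than it. Ier2 and Ier5 have 1 exon, Egr1, Egr2, Egr3 and Ier3 have 2, Ccn1 and Ccn2 have 5 and Nr4a1 has 8, in GENCODE M21. The pentamer ATTTA, the core of AU-rich elements that mark short-lived transcripts, was counted in the 3′ UTR of the longest coding transcript. It was present in 8 of the 9 genes and in 64.1% of 12888 tested genes with a 3′ UTR, at a median of 2.5 per kilobase in the 9 genes and 1.13 in the tested genes. Ier3 had 5 copies in 613 bases (8.16 per kilobase) and Ccn1 had 5 in 690 bases (7.25 per kilobase), densities that 1.93% and 2.79% of tested genes reached. Egr2 had 3 copies, Nr4a1 had 3, Egr3 had 7, Egr1, Ier5 and Ccn2 had 2 each and Ier2 had none. Of this densest pair, Ier3 was called lower and Ccn1 higher, and a part of ATTTA in these differences was not tested. A longer motif of AU-rich elements, a nonamer, was also counted. It was present in 0 of the 9 genes and in 7.1% of the tested genes with a 3′ UTR. None of the 9 genes overlapped another annotated gene, except Ccn2 with Gm15270 on the opposite strand. The nearest expressed gene upstream on the same strand, which for these genes must have a mean of at least 5 CPM, was 7.63 kilobases away for Ier2 (Nacc1), 21.2 for Egr1, 21.5 for Nr4a1, 27.6 for Ier5 and over 264 kilobases for Egr2, Egr3, Ier3, Ccn1 and Ccn2.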

How the data were processed

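RNA was measured in 12 libraries. Per the submitters' processing notes, reads were handled with HISAT2, HTSeq and the build mm10, with no versions, and each of the 12 deposited files lists unnormalized counts by Ensembl gene. Which annotation and strand setting the authors counted with is not given in the sources used here. Symbols, exons and positions come from GENCODE M21, which matched 54495 of 54532 genes.

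Tests were run on the counts with edgeR 4.0.16 (R 4.3.3): filterByExpr, TMM scaling, and a quasi-likelihood fit of all 12 libraries with 1 term per label (6 residual degrees of freedom, biological coefficient of variation 0.397). In that fit 7 comparisons were tested, with Benjamini-Hochberg adjustment over 16840 genes. Standard errors and 95% intervals come from that test. CPM is on the TMM scale, FPKM divides it by exon length, and SDs are over 2 libraries. The noise ratio divides the squared difference in counts by that from counting noise and takes the median over genes that have at least 100 counts in a pair of libraries. DESeq2 1.42.0, upper quartile scaling, no filter, a replicate block, fits of fewer libraries and leaving out libraries were the alternatives, and leaving out pairs of libraries was added after seeing the data. The fit was tested on simulated data, which are not quoted.

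The members and the lists were chosen with earlier results of these data known. Named are the 9 genes, their relatives, up to 4 called genes of each other list with the largest change in G3-YSD and in HSV against mock, and the 3 genes most alike. Dusp4, Fn1 and the single markers of other cell types were named after their values were seen.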

Additional observations from a re-analysis of the deposited data

How the results depend on the processing

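Of the 8 tested genes, 3 were called in each of G3-YSD and HSV against mock and against cGAMP. Upper quartile scaling called 3 in each, with all-gene counts of 678 (364 higher, 314 lower) and 651 (347 higher, 304 lower) in G3-YSD and HSV against mock, where TMM gave 302 higher and 567 lower and 291 higher and 585 lower. Without the filter and by DESeq2 the number in G3-YSD against cGAMP moved to 5, with Egr1 and Ier2 added, and was 4 in the other 3 comparisons, with Egr1 added. No filter called 1894 genes (G3-YSD) and 1892 (HSV) against mock, 1160 and 1150 of them higher, and 1650 and 1633 against cGAMP, 969 and 954 of them higher. DESeq2 called 2191, 2267, 2061 and 2033, with 1066, 1085, 970 and 933 higher. In fits of the 4 libraries of a comparison alone, with or without the replicate block, 0 of the 8 were called in each of the 4 comparisons, and 0 of all genes, with 2 or fewer residual degrees of freedom. Leaving out 1 library gave 0 to 1 of the 8 in G3-YSD against mock, 0 to 1 in HSV against mock, 0 to 2 in G3-YSD against cGAMP and 0 to 1 in HSV against cGAMP, while all-gene calls were 0 to 652, 0 to 682, 0 to 567 and 0 to 671. Without G3-YSD 2 and HSV 2 the number was 5 in both comparisons with mock (6533 and 6672 genes), and without G3-YSD 1 and HSV 1 it was 3 (7213 and 7233 genes). Without mock 1 and hpRNA 1, or without mock 2 and hpRNA 2, it was 0 in both, with 0 genes called. Causes of these moves were not tested. HT-DNA, hpRNA and cGAMP against mock had 0 of the 8 called under every alternative run.

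The replicate numbers were not taken to pair the samples in the main fit. Deviations of same-numbered libraries correlated above 0.1 in 7 of 15 pairs of labels, from -0.449 to 0.965. Those above 0.1 were all pairs among HT-DNA, hpRNA, cGAMP and mock (0.51 to 0.842) and G3-YSD with HSV (0.965). Pairs of G3-YSD or HSV with one of the other labels were all negative (-0.449 to -0.403). With the replicate block the calls were 3, 2, 2 and 2, Egr2 being lost in HSV against mock (adjusted p = 0.0522) and in both comparisons with cGAMP, and all-gene calls were 1211 and 1214 against mock and 1142 and 1079 against cGAMP. In the 8 libraries without G3-YSD and HSV, the block called 14, 0 and 23 genes in HT-DNA, hpRNA and cGAMP against mock, and in 4 libraries alone it called 6, 182 and 6.

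Of 384 alternative log2 fold changes of the 8 genes in the 4 comparisons, 370 kept their direction and 14 reversed, all of them of uncalled values. Egr3 in G3-YSD against mock ranged from -0.93 without mock 2 to 0.15 without mock 1, and 0.15 without mock 1 and hpRNA 1. Nr4a1 in G3-YSD against mock ranged from -0.99 without G3-YSD 2 to 0.84, and in HSV against mock from -0.62 without HSV 2 to 0.65, with -0.083 and -0.13 without mock 2. Without G3-YSD 2 and HSV 2 these were -0.99 and -0.61, and without mock 2 and hpRNA 2 they were -0.081 and -0.13. Against cGAMP, Nr4a1 ranged from -0.42 to 1.41 in G3-YSD and from -0.048 to 1.22 in HSV, and in HSV Egr3 ranged from -0.21 to 0.64 and Ier5 from -0.022 to 0.49. Of 144 alternative values of the 12 called ones, 62 were called, 82 were not and 0 reversed. Counts of 8 to 46 for Nr4a1 and Egr3, and 2 libraries per label, limit what can be seen.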
